A study of Homo sapiens with 4 samples.

Results

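The genes described here are 6 genes of the inflammatory acute-phase response: the interleukin-1 ligand genes IL1A and IL1B, the receptor genes IL1R1 and IL1RAP, and the serum amyloid A genes SAA1 and SAA2. They were taken by symbol from a table of 20263 human genes, each matched 1 row, and all 6 were among the 13612 genes with enough counts to be tested. They were selected on their counts in RB-1 against DMSO in these same libraries, so their own values are given as a description, with errors and no test. The cells were MDA-MB-231, an established human line from a triple-negative breast cancer. RB-1 libraries came from cells kept 24 h with RB-1, a compound known by its code name that the series title describes as derived from ribociclib, a drug against the cell-cycle kinases CDK4 and CDK6. DMSO libraries came from cells kept without RB-1 and labelled DMSO, the usual solvent. All cells were grown in DMEM with fetal bovine serum. There were 2 libraries per group, and no dose is labelled.

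Interleukin-1 alpha and interleukin-1 beta are cytokines that bind the same receptor. The ligand first meets IL1R1, the accessory chain IL1RAP then joins, and the adaptor MYD88 and the IRAK kinases pass the signal on to NF-kB and MAP kinases. Interleukin-1 beta is made as an inactive precursor that caspase-1 cuts inside inflammasomes, whereas the interleukin-1 alpha precursor is already active. Serum amyloid A is a lipoprotein-bound protein that the liver secretes in large amounts during inflammation, driven by interleukin-1 and interleukin-6, and other cells including tumour cells can make it too.

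Transcripts of both ligands, of IL1R1 and of both serum amyloid A genes were more abundant in both RB-1 libraries than in either DMSO library, while IL1RAP overlapped between the groups. The difference was 20.7-fold for IL1B, 14.4-fold for SAA1, 6.67-fold for SAA2, 2.91-fold for IL1R1 and 2.76-fold for IL1A. So 5 of the 6 genes had higher values in both RB-1 libraries than in both DMSO libraries, as did 35.3% of all tested genes, and none of the 6 was lower without overlap, as 34.3% of all were. Since the genes were selected on this contrast, nothing is read from these counts. Levels are given as CPM, counts scaled to library size with TMM factors, which correct for differences in library composition. In bulk RNA, a change in the number of cells that express a gene and a change in RNA per cell cannot be told apart.

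Library totals ran from 34122874 to 37754168 counts. The share of counts on the 13 mitochondrially encoded genes was 4.25% and 6.46% in the RB-1 libraries and 8.68% and 21.7% in the DMSO libraries, so DMSO replicate 2 stood apart. Without those 13 genes the log2 fold changes were 4.37 for IL1B, 3.86 for SAA1, 2.74 for SAA2, 1.54 for IL1R1, 1.47 for IL1A and -0.02 for IL1RAP. Without DMSO replicate 2 they were 4.56 for IL1B, 4.73 for SAA1, 2.73 for SAA2, 1.14 for IL1R1, 1.39 for IL1A and -0.02 for IL1RAP. MDA-MB-231 is a mesenchymal line that expresses VIM and CD44 and lacks hormone receptors. VIM had 5423 and 4966 CPM in RB-1 and 3565 and 4243 CPM in DMSO, whereas the oestrogen receptor gene ESR1 had 4 and 5 counts in RB-1 and 23 and 7 counts in DMSO. Of 6 markers known to be high in this line only CAV1 was called lower in RB-1. S100A4 had the lowest level of these, with 13.5 and 7.69 CPM in RB-1 and 5.68 and 5.77 CPM in DMSO. Of 6 known to be low, ERBB2 was present in all libraries (60.8 and 57.3 CPM in RB-1, 77.2 and 65.6 CPM in DMSO). The luminal genes FOXA1 (23 and 26 counts in RB-1, 255 and 240 in DMSO) and GATA3 (85 and 119 counts in RB-1, 338 and 716 in DMSO) and the progesterone receptor gene PGR (12 and 20 counts in RB-1, 51 and 58 in DMSO) were called lower in RB-1, so DMSO held some transcript of each. Whether replicate libraries stem from separate cultures is not labelled, and p-values then measure only the spread between these 4 libraries, which may be technical.

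**Figure D1:**
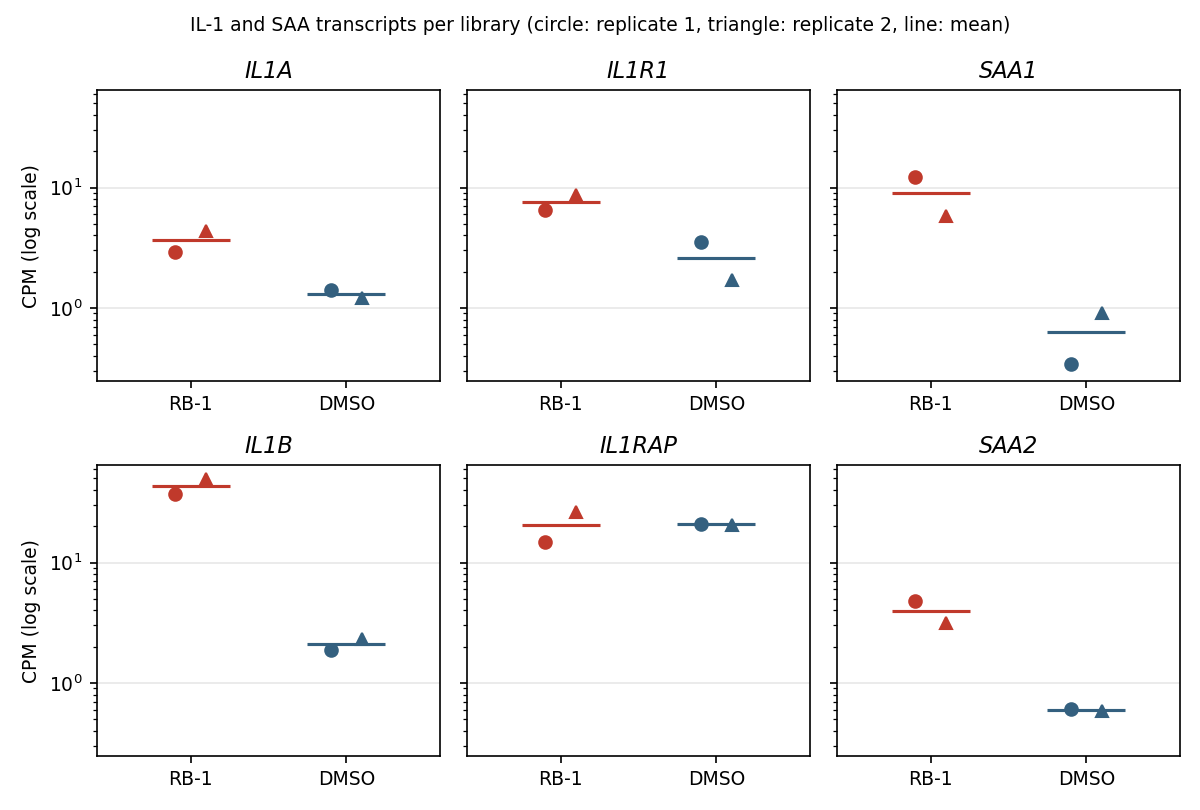
CPM of the 6 genes in each library on a log axis, RB-1 left and DMSO right, with circles for replicate 1, triangles for replicate 2 and lines at the group means. Both RB-1 libraries lie above both DMSO libraries for IL1A, IL1B, IL1R1, SAA1 and SAA2, and the IL1RAP values of RB-1 lie on both sides of those of DMSO.

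The ligand genes IL1A and IL1B lie next to each other on chromosome 2 (GRCh38, GENCODE release 29: IL1A at 112773915 to 112784590, IL1B at 112829751 to 112836903, both on the minus strand). Their proximal promoters are printed because both transcripts were higher in RB-1 but by unlike amounts. The RefSeq sequences run from 250 bases before to 50 bases after an annotated start, on GRCh38.p14, minus strand, 5′ to 3′, and the capitals mark matches to 5 motifs. These were the kappaB consensus by name, the C/EBP motif TTNNGNAA, the AP-1 motif TGANTCA, the STAT motif TTCNNNGAA and TATAAA, each searched on both strands.
IL1A, chr2:112784444-112784743: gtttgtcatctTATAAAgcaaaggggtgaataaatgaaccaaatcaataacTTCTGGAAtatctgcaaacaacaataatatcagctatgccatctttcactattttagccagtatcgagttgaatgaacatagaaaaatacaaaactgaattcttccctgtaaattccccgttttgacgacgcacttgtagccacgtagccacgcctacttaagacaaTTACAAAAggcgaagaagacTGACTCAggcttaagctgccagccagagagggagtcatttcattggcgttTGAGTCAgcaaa
IL1B, chr2:112836730-112837029: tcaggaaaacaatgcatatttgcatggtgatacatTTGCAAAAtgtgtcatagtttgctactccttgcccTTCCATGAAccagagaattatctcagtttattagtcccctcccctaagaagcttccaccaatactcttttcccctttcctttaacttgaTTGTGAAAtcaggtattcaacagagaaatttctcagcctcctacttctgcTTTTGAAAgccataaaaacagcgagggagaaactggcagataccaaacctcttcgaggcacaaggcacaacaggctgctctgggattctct

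The IL1A window printed is that of the first of 2 annotated starts, and positions depend on this choice: counted from the other start the same AP-1 matches lie at -105 and -55 and its window holds no TATAAA. The printed IL1A window held 2 AP-1 matches, TGACTCA at base -12 and TGAGTCA at base 39 counted from the start, together with 2 C/EBP matches and 1 match to TATAAA. The IL1B window held 3 C/EBP matches at bases -215, -91 and -41 and 1 STAT match at base -180. None of the matches overlapped another. Among all 35116 promoter windows of the table, AP-1 was found in 7.71%, C/EBP in 36.8%, STAT in 7.66%, TATAAA in 11.5% and the kappaB consensus in 5.91%. No kappaB match lay in either window, which says only that those letters are not in these 300 bases. The table also held windows for IL1R1 and IL1RAP. The single IL1RAP window and 1 of the 4 IL1R1 windows had no match to any of the motifs.

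IL1B had 1395 and 1859 counts in RB-1, against 65 and 76 counts in DMSO. On the normalised scale this was 37.0 and 49.6 CPM in RB-1 and 1.86 and 2.32 CPM in DMSO. The lowest RB-1 library was thus 15.9-fold above the highest DMSO library, and the groups did not come near each other. The mean was 43.3 ± 8.96 CPM in RB-1 and 2.09 ± 0.32 CPM in DMSO (SD, n = 2 each; log2 fold change 4.37 ± 0.35 SE). By log2 fold change it ranked 27 of the 13612 tested genes, counted from the top.

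IL1A had 109 and 164 counts in RB-1, against 49 and 40 counts in DMSO. This corresponded to 2.89 and 4.38 CPM in RB-1 and 1.40 and 1.22 CPM in DMSO, with the RB-1 libraries above both DMSO libraries and replicate 2 the higher of the RB-1 pair. The mean was 3.63 ± 1.05 CPM in RB-1 and 1.31 ± 0.13 CPM in DMSO (SD, n = 2 each; log2 fold change 1.47 ± 0.40 SE). The ligands therefore differed in how far they stood above DMSO. IL1B counts were 12.8 and 11.3 times those of IL1A within the RB-1 libraries, and 1.33 and 1.90 times within the DMSO libraries, a ratio that no scaling between libraries can alter.

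Of the receptor chains, IL1R1, which binds the ligand, had 244 and 326 counts in RB-1, against 122 and 56 counts in DMSO. It had 6.47 and 8.71 CPM in RB-1 and 3.50 and 1.71 CPM in DMSO. The groups did not overlap, but the DMSO libraries differed from each other by 2.05-fold, so the size of the difference rested on them: the log2 fold change was 1.54 ± 0.41 SE with all libraries, 2.15 without DMSO replicate 1 and 1.14 without DMSO replicate 2. IL1R1 lies on chromosome 2 at 102064544 to 102179874 (plus strand), in a cluster with the decoy receptor gene IL1R2 and other receptor genes of the family.

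IL1RAP, the accessory chain that interleukin-1 receptors share with those for interleukin-33 and interleukin-36, had 554 and 988 counts in RB-1, against 735 and 675 counts in DMSO. It had 14.7 and 26.4 CPM in RB-1 and 21.1 and 20.6 CPM in DMSO. RB-1 replicate 1 was below both DMSO libraries and RB-1 replicate 2 above them. The log2 fold change was -0.02 ± 0.33 SE. It was 0.35 without RB-1 replicate 1 and -0.50 without RB-1 replicate 2, and its sign also turned with upper-quartile factors (0.09), library totals alone (0.18) and a correction for exon length and GC content (0.65), so no direction can be given. IL1R1 counts were 0.440 and 0.330 of those of IL1RAP in the RB-1 libraries and 0.166 and 0.0830 in the DMSO libraries.

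The serum amyloid A genes SAA1 and SAA2 lie on chromosome 11 on opposite strands (SAA1 at 18266174 to 18269977, plus strand; SAA2 at 18239223 to 18248643, minus strand) and encode the acute-phase forms of the protein. Their coding sequences are almost the same, which bears on how reads were assigned. In GENCODE transcripts SAA1-201 and SAA2-201 each coding sequence had 366 bases, of which 11 differed (97% identity). The stretch of 60 coding bases with most differences, from base 229 to 288 counted from the start codon, is printed with the 8 differing bases in capitals.
SAA1: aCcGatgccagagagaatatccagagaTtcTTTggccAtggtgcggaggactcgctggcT
SAA2: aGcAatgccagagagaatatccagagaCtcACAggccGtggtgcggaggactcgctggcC

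Coding bases 44 to 229, a run of 186, were the same in both. Of all windows of 50 bases in SAA1-201, 34.1% also occurred in a transcript of SAA2, and of windows of 100 bases 16.9% did. For SAA2-201 against the transcripts of SAA1 the shares were 37.5% and 18.8%. The sources used here give neither the read length nor the treatment of reads that match both genes, so the split between SAA1 and SAA2 is uncertain. Their sum is less exposed to it.

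SAA1 had 465 and 219 counts in RB-1, against 12 and 30 counts in DMSO. Exact Poisson 95% intervals, which cover counting error only, ran from 6.20 to 21.0 for the 12 counts and from 20.2 to 42.8 for the 30 counts. On the CPM scale it had 12.3 and 5.85 in RB-1 and 0.344 and 0.916 in DMSO. The groups were far apart, with the lowest RB-1 library 6.39-fold above the highest DMSO library. Replicates differed 2.11-fold in RB-1 and by more in DMSO, where SAA1 in replicate 1 was 0.376 times that in replicate 2. The mean was 9.09 ± 4.58 CPM in RB-1 and 0.630 ± 0.40 CPM in DMSO (SD, n = 2 each; log2 fold change 3.85 ± 0.55 SE). The log2 fold change was 4.73 without DMSO replicate 2, 3.22 without RB-1 replicate 1 and 3.08 with a correction for exon length and GC content.

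SAA2 had 181 and 117 counts in RB-1, against 21 and 19 counts in DMSO. This was 4.80 and 3.12 CPM in RB-1 and 0.602 and 0.580 CPM in DMSO, with the lowest RB-1 library 5.19-fold above the highest DMSO library. The log2 fold change was 2.74 ± 0.44 SE. Both serum amyloid A genes were higher in RB-1 replicate 1 than in RB-1 replicate 2, by 2.11-fold for SAA1 and 1.54-fold for SAA2, whereas IL1A, IL1B, IL1R1 and IL1RAP were all lower in RB-1 replicate 1.

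The sum of SAA1 and SAA2 was 646 and 336 counts in RB-1, against 33 and 49 counts in DMSO. On the CPM scale the ratio of group means was 10.7. Of the exon bases of SAA2 about 11.99% also belong to the read-through gene SAA2-SAA4, whose own row had 11 and 4 counts in RB-1 and 1 and 0 counts in DMSO. SAA4, which encodes the form made without inflammation, had 4 and 3 counts in RB-1 and 1 and 0 counts in DMSO, too few to compare.

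Per kilobase of the longest principal transcript, the order of levels was not the same in the 2 groups. In RB-1 IL1B was highest at 26.6 CPM per kb, with its libraries at 22.7 and 30.4. SAA1 followed at 13.5 and SAA2 at 5.77 CPM per kb, then IL1RAP at 4.21, IL1A at 1.71 and IL1R1 at 1.48. The libraries of SAA2 (6.98 and 4.55) overlapped those of IL1RAP (3.01 and 5.41), and those of IL1A (1.36 and 2.06) overlapped those of IL1R1 (1.26 and 1.69), so neither pair was separated by more than its spread. In DMSO IL1RAP was highest at 4.27 CPM per kb, followed by IL1B at 1.28, SAA1 at 0.933, SAA2 at 0.860, IL1A at 0.618 and IL1R1 at 0.506. SAA1 (0.510 and 1.36) overlapped both IL1B (1.14 and 1.42) and SAA2 (0.876 and 0.844) there, and IL1A (0.661 and 0.575) overlapped IL1R1 (0.680 and 0.332). The places of SAA1 and SAA2 also depend on how reads that match both genes were treated, which is not known.

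**Figure D2:**
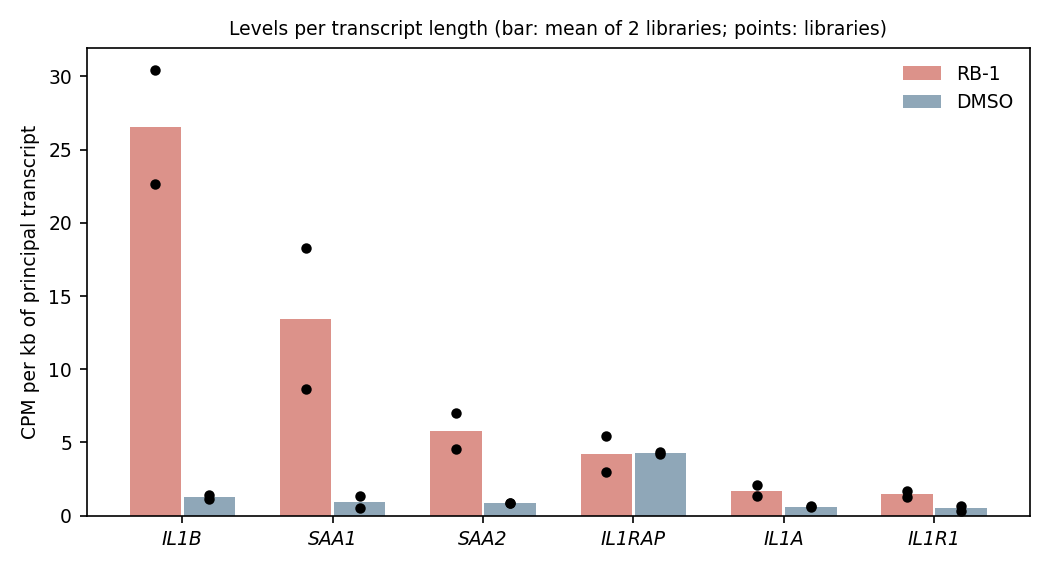
Mean CPM per kilobase of the principal transcript for the 6 genes, RB-1 bars left of DMSO bars, with points for the 2 libraries of each group. IL1B stands highest in RB-1 at 26.6, and IL1RAP stands highest in DMSO at 4.27.

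Fold changes in these libraries varied with exon length. Over all tested genes the median log2 fold change was 0.46 in the quartile with the shortest exon length (up to 2334 bases), which holds IL1A, IL1B, SAA1 and SAA2, and -0.46 in the quartile with the longest (5698 bases or more), which holds IL1R1 and IL1RAP. Along length there was a difference within RB-1 as well: the median log2 ratio of RB-1 replicate 1 over replicate 2 was 0.30 in the shortest quartile and -0.33 in the longest. SAA1, with 796 exon bases, had a ratio of 1.08 and IL1RAP, with 9945, one of -0.85, while IL1A and IL1B lay on the other side of 0 from the median of their quartile. Corrected for exon length and GC content, the log2 fold changes were 3.85 for IL1B, 3.08 for SAA1, 2.42 for SAA2, 1.87 for IL1R1, 1.37 for IL1A and 0.65 for IL1RAP, and the median of all genes moved to -0.16. Exon length here is that of all exons of a gene together. It was 2227 bases for SAA2 and 9945 for IL1RAP, against 687 and 4875 bases in their principal transcripts. A correction by the length of the principal transcript was not tested. The part of length in the differences was not tested beyond the correction by exon length and GC content.

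**Figure D3:**
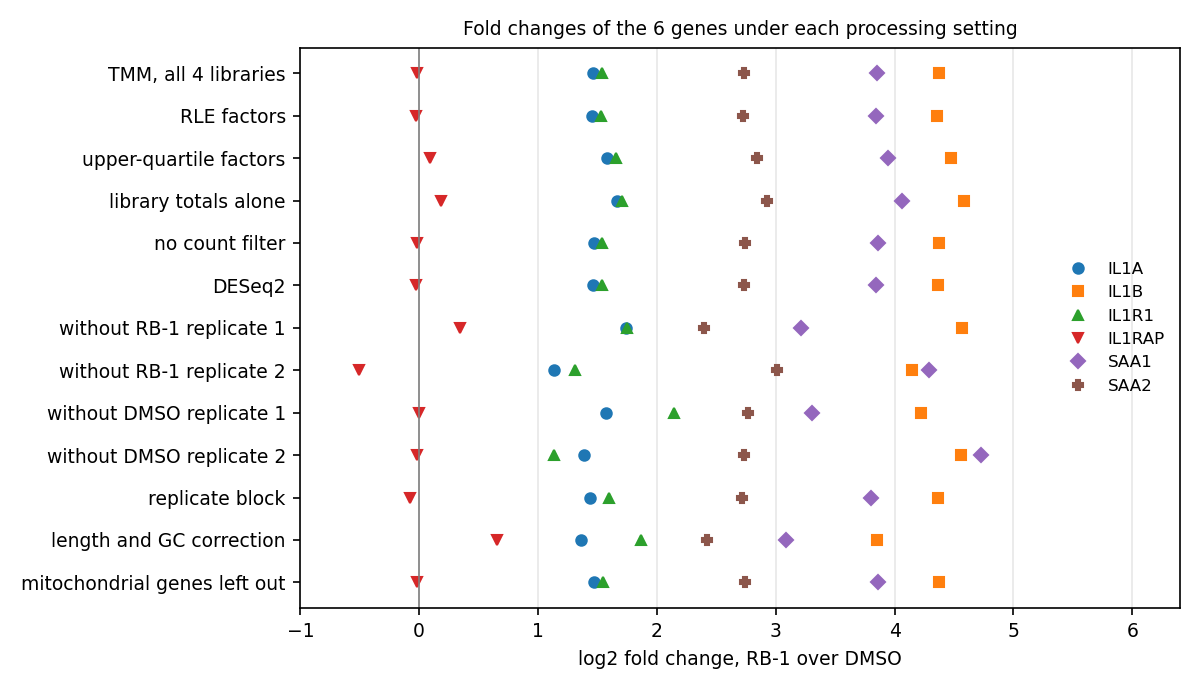
Log2 fold change of RB-1 over DMSO for the 6 genes, 1 row for each way of processing, with the reported fit in the top row. IL1R1 lies between 1.14 and 2.15, IL1B between 3.85 and 4.58, and IL1RAP lies on both sides of 0.

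**Figure D4:**
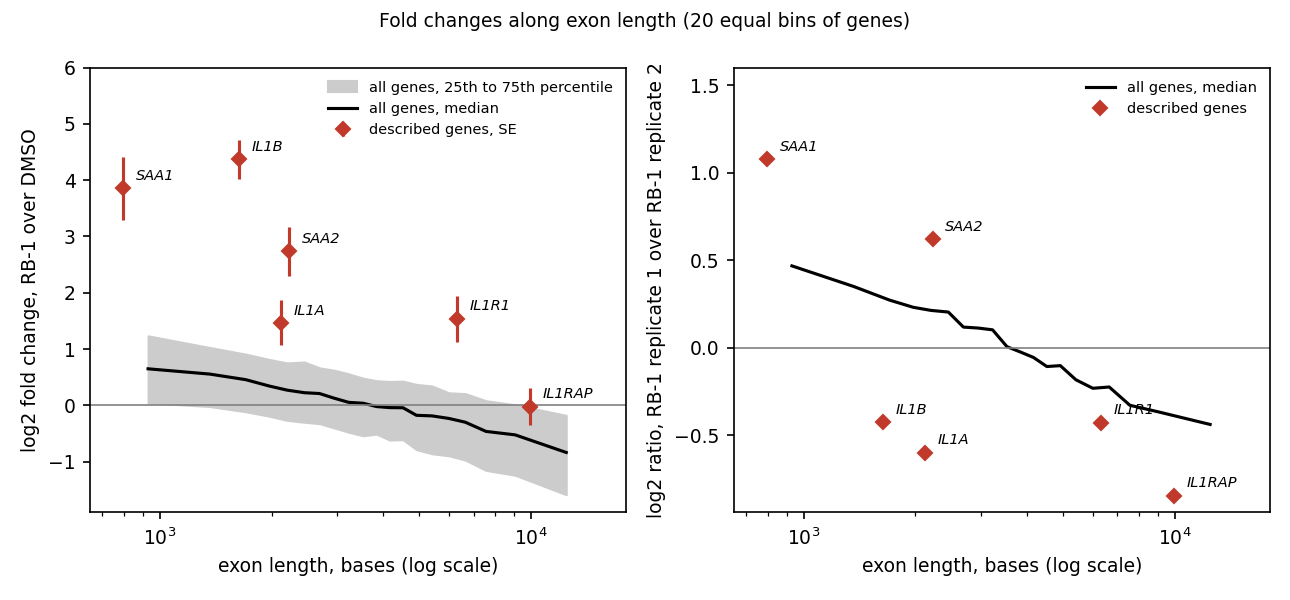
Left, log2 fold change of RB-1 over DMSO against exon length (log axis), with the median and the 25th to 75th percentile of all genes in 20 bins and the 6 genes with their SE. Right, the log2 ratio of RB-1 replicate 1 over RB-1 replicate 2 on the same axis. IL1B, SAA1, SAA2, IL1A and IL1R1 lie above the band at their length, with IL1B at 4.37 and IL1A at 1.47.

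Around the 6 genes, 128 entries of 8 lists of pathway genes were found in the table and 88 were tested, with edgeR's quasi-likelihood test adjusted over all 13612 genes by the Benjamini-Hochberg method. Of these entries 25 rose, 8 fell and 55 did not pass at an adjusted p under 0.05. Over all tested genes 12.8% were called higher and 16.1% lower. The median log2 fold change was 0.43 over the pathway genes and 0.01 over all genes. Neither this median nor those of single lists were corrected for exon length. Along length the median of all genes ran from 0.46 in the shortest quartile to -0.46 in the longest. The part of length in the list medians was not tested. With the length and GC correction 20 pathway genes were called higher and 8 lower. The lists were chosen with earlier results of these data known.

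**Figure D5:**
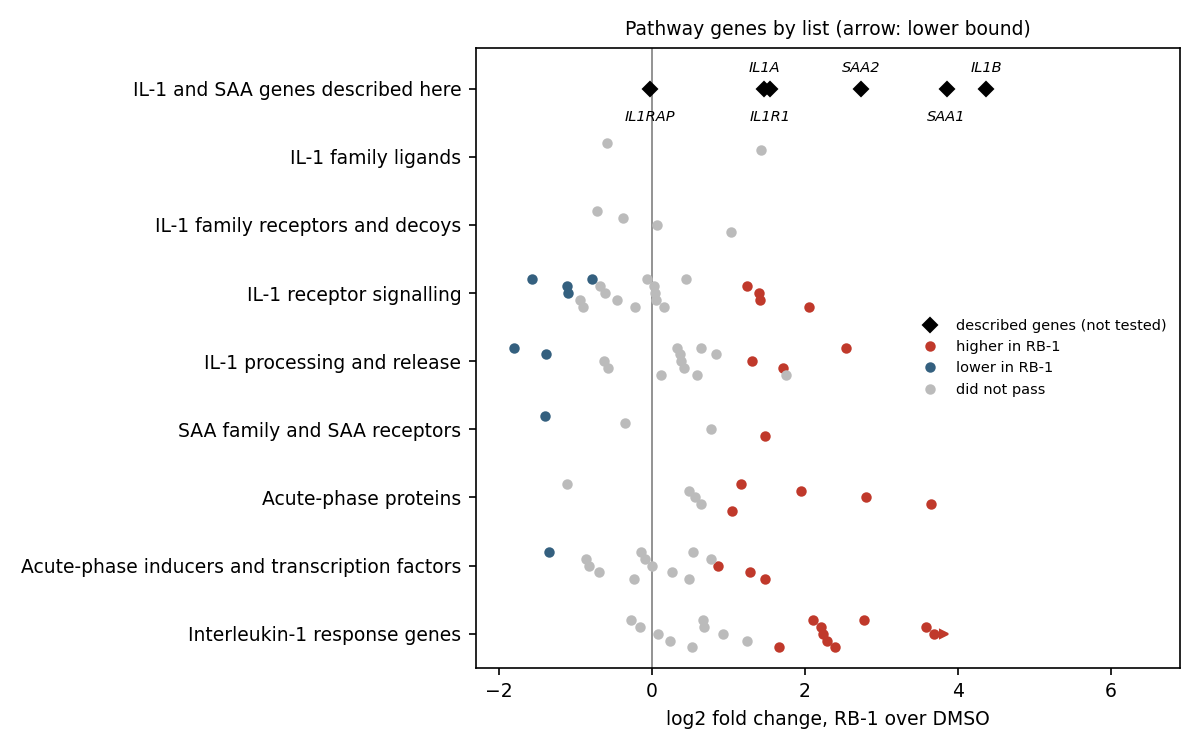
Log2 fold change of RB-1 over DMSO for the 88 tested pathway genes by list, red for genes called higher, blue for genes called lower and grey for genes that did not pass, with the 6 described genes as black diamonds on top. CCL20, at 0 counts in DMSO, is drawn with an arrow at its ratio to a floor of 3 counts over the DMSO group. The acute-phase proteins and the interleukin-1 response genes have 14 genes called higher and none called lower. Over all tested genes 12.8% were called higher and 16.1% lower. The 14 include LCN2 and CCL20, which passed the count filter only through RB-1, and untested genes could not be called lower.

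Of 9 further ligand genes of the family, 4 had 0 counts in all libraries and only 2 were tested, neither of which passed. The 8 besides IL18 had at most 16 counts in any library. IL18, another cytokine cut by caspase-1, had 48.3 and 48.4 CPM in RB-1 and 50.7 and 94.1 CPM in DMSO (adjusted p = 0.189). IL1RN, which encodes the receptor antagonist, had 0 and 4 counts in RB-1 and 0 in both DMSO libraries, so it was not detectable in DMSO at this depth. IL36G, named after its values were seen, had 7 and 5 counts in RB-1 and none in DMSO. This is 3.60-fold above a floor of 3 counts set over the DMSO group. The RB-1 counts of IL36G were taken as observed, without counting error, and it was not tested.

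Of 9 further receptor and decoy genes 4 were tested and none passed. The other 5 had at most 7 counts in any library. SIGIRR, an inhibitory receptor of the family named after its values were seen, had 11.2 and 6.92 CPM in RB-1 and 7.22 and 10.1 CPM in DMSO. IL18BP, which encodes a soluble decoy for interleukin-18 and was likewise named afterwards, had 6.65 and 8.17 CPM in RB-1 and 7.14 and 12.1 CPM in DMSO. IL1R2, the decoy receptor that takes up ligand without signalling, had 0 and 2 counts in RB-1 and 0 in both DMSO libraries. IL1RL2, the interleukin-36 receptor, had 1.72 and 1.31 CPM in RB-1 and 0.917 and 0.549 CPM in DMSO (log2 fold change 1.04 ± 0.48 SE, adjusted p = 0.124).

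Among 20 tested genes that carry the signal from the receptor, 4 were called higher, 4 lower and 12 neither, with a median log2 fold change of -0.14. PELI2, a Pellino ubiquitin ligase that acts on IRAK proteins, was 4.15-fold higher (415 and 631 counts in RB-1, 153 and 76 counts in DMSO; adjusted p = 0.00518 by edgeR). The kinase gene IRAK2 had 38.5 and 44.2 CPM in RB-1 and 16.3 and 14.7 CPM in DMSO (log2 fold change 1.42 ± 0.28). TIFA, an adaptor that binds TRAF6, rose by 1.40 ± 0.31 on the log2 scale. TAB2, an adaptor of the kinase TAK1, fell to 43.8 and 71.8 CPM in RB-1, against 145 and 197 CPM in DMSO (log2 fold change -1.56 ± 0.30). MYD88 did not pass (17.8 and 12.7 CPM in RB-1, 14.2 and 34.5 CPM in DMSO; adjusted p = 0.243), and its log2 fold change of -0.67 was 0.13 without DMSO replicate 2. Without DMSO replicate 2 neither IRAK2 (1.36, adjusted p = 0.0621 by edgeR) nor TIFA (1.28, adjusted p = 0.0871) passed and the list had 1 gene higher and 1 lower, and 1 gene of the list was lower with RB-1 replicate 1 left out, with library totals alone or with upper-quartile factors.

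Among 16 tested genes of precursor cutting and release, 3 rose, 2 fell and 11 did not pass. CASP1, the protease that activates interleukin-1 beta, fell to 1.17 and 1.23 CPM in RB-1, against 4.33 and 4.06 CPM in DMSO (log2 fold change -1.81 ± 0.37, adjusted p = 0.00651 by edgeR). CASP4, of the non-canonical inflammasome, was 2.61-fold lower. PYCARD, which encodes the adaptor ASC, rose by 2.53 ± 0.53 on the log2 scale at a low level, with 3.23 and 1.74 CPM in RB-1 and 0.545 and 0.305 CPM in DMSO, and did not pass without RB-1 replicate 1 (2.02, adjusted p = 0.0640 by edgeR). With the length and GC correction it was 1.63. CTSB, the lysosomal protease cathepsin B, was 2.48-fold higher. The genes called higher in this list numbered 1 without RB-1 replicate 1 and 5 without RB-1 replicate 2.

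Of 9 genes for other serum amyloid A forms and for receptors that bind the protein, 4 were tested, 1 rose and 1 fell. TLR2 had 8.59 and 8.17 CPM in RB-1 and 3.84 and 2.17 CPM in DMSO (log2 fold change 1.48 ± 0.37, adjusted p = 0.0153 by edgeR). TLR4 fell to 10.3 and 20.3 CPM in RB-1, against 43.2 and 37.6 CPM in DMSO (-1.40 ± 0.35, adjusted p = 0.0152). TLR2 did not pass without RB-1 replicate 1 (1.45, adjusted p = 0.0652 by edgeR) or DMSO replicate 2 (1.15, 0.136), and TLR4 did not pass without RB-1 replicate 1 (-0.99, 0.0627) or DMSO replicate 1 (-1.30, 0.0714) or with the length and GC correction (-0.54, 0.113). FPR2, a receptor for serum amyloid A on leukocytes, had 0 counts in all 4 libraries.

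Other acute-phase proteins ranged from genes without counts, through untested genes with at most 13 counts in any library, to genes that were tested. Of 23 genes only 9 were tested, of which 5 rose and none fell, and 6 had 0 counts in every library, among them CRP and HP, classical products of the liver. LCN2, named after its values were seen, is among the 5, with 137 and 119 counts in RB-1 and 0 and 18 in DMSO. It passed the count filter only through RB-1, and untested genes could not be called lower, so these numbers depend partly on the filter. CFB, complement factor B, had 28.6 and 27.5 CPM in RB-1 and 4.27 and 3.81 CPM in DMSO (log2 fold change 2.79 ± 0.31, adjusted p = 0.000388 by edgeR). It is uncertain because 78.6% of its exon bases are shared with a read-through gene. C3, the central complement protein, was 3.86-fold higher with 2.57 and 3.18 CPM in RB-1 and 0.573 and 0.916 CPM in DMSO, and did not pass without DMSO replicate 1 (1.65, adjusted p = 0.0677 by edgeR). PTX3, the long pentraxin, was 2.23-fold higher, but did not pass without RB-1 replicate 1 (0.87, adjusted p = 0.0753 by edgeR) or DMSO replicate 2 (0.98, 0.0997) or with the length and GC correction (0.65, 0.0720), which left 3 genes of the list higher.

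Of 15 tested inducers and transcription factors of the acute-phase response 3 rose, 1 fell and 11 did not pass. CEBPB, a transcription factor known to bind acute-phase promoters, had 161 and 144 CPM in RB-1 and 54.5 and 55.1 CPM in DMSO (log2 fold change 1.48 ± 0.24, adjusted p = 0.00225 by edgeR). With the length and GC correction its log2 fold change was 0.74 (adjusted p = 0.0346 by edgeR). IL6ST, the signalling chain of interleukin-6 receptors, was 2.55-fold lower and did not pass without RB-1 replicate 1 (adjusted p = 0.0716 by edgeR) or DMSO replicate 1 (0.0576), so the list had no gene lower there, against 3 without RB-1 replicate 2. With the length and GC correction it was -0.71. IL6 itself was just past the threshold, with 8.19 and 8.71 CPM in RB-1 and 1.98 and 5.01 CPM in DMSO (1.28 ± 0.43, adjusted p = 0.0491 by edgeR), and it was 2.11 without DMSO replicate 2. CEBPG, a partner of other C/EBP factors, was 1.82-fold higher (adjusted p = 0.0405). Neither call was stable: IL6 did not pass without RB-1 replicate 1 (1.32, adjusted p = 0.172), RB-1 replicate 2 (1.23, 0.128) or DMSO replicate 1 (0.75, 0.317), with RLE factors (1.26, 0.0516), no count filter (1.28, 0.0605) or the length and GC correction (0.80, 0.264), and CEBPG did not pass when any 1 of the 4 libraries was left out (adjusted p from 0.0503 to 0.305 by edgeR) or without a count filter (0.0539).

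Genes known to respond to interleukin-1 had the highest median of the 8 lists, 1.45 without correction for exon length, also with CCL20 set against the floor given below. Of 18 tested, 9 rose, none fell and 9 did not pass. CXCL8, the neutrophil attractant interleukin-8, had 4688 and 4209 counts in RB-1 and 237 and 427 counts in DMSO (log2 fold change 3.58 ± 0.35, adjusted p = 0.000253 by edgeR). IL32, an inflammatory cytokine, had 7.45 and 4.54 CPM in RB-1 and 0.631 and 1.13 CPM in DMSO (log2 fold change 2.77 ± 0.45, adjusted p = 0.00219 by edgeR), and a log2 fold change of 1.95 with the length and GC correction. PTGS2 was 5.27-fold higher, with a log2 fold change of 2.40 that was 2.999 without DMSO replicate 2, and ICAM1 was 4.71-fold higher. CCL20 had 29 and 14 counts in RB-1 and 0 in both DMSO libraries, 12.9-fold above a floor of 3 counts set over the DMSO group. The RB-1 counts of CCL20 were taken as observed, without counting error, and it passed the count filter only through RB-1. NFKBIA and TNFAIP3, feedback inhibitors of NF-kB named after their values were seen, were at 0.08 ± 0.27 (adjusted p = 0.843 by edgeR) and 0.23 ± 0.32 (0.615), and did not pass.

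Markers of other cells that make interleukin-1 or serum amyloid A were low. Of 10 monocyte and macrophage markers, AIF1 and TYROBP had 0 counts in every library, and the summed level of the list, 222 and 202 CPM in RB-1 and 162 and 342 CPM in DMSO, was nearly all CD68. PTPRC, the leukocyte marker CD45, had 5 and 0 counts in RB-1 and 22 and 13 counts in DMSO. The 7 hepatocyte markers together had 15 and 4 counts in RB-1 and 4 and 15 counts in DMSO, and 4 of them had none. The 7 fibroblast markers summed to 5.99 and 6.12 CPM in RB-1 and 10.7 and 10.2 CPM in DMSO, with COL1A1 the highest.

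The genes whose pattern over the 4 libraries was closest to each of the 6 were found by the root mean square difference of log2 CPM centred on each gene's own mean. For IL1A these were GPR155 (0.0384), SSPN (0.0445) and NDNF (0.0675). For IL1R1 they were GDPD1 (0.0430), XKR6 (0.0653) and TDRD5 (0.0843), and for IL1RAP OSCAR (0.0350), ABITRAM (0.0399) and KATNAL1 (0.0417). SAA2 was nearest to PXMP4 (0.0979), KLHDC9 (0.100) and SMIM29 (0.115). SAA1 had no gene so close: BEST1 (0.356), CXCL8 (0.381) and CST4 (0.385) were nearest. IL1B was likewise apart from most genes, with ZNF8-ERVK3-1 at 0.407 and ODF3B at 0.434 behind an unnamed gene. The BEST1 counts are uncertain, because BEST1 overlaps 56.65% of the exon bases of FTH1 on the opposite strand. FTH1 had 1461 and 1177 CPM in RB-1 and 727 and 969 CPM in DMSO, and the use of strand is not known. Whether BEST1 holds reads of FTH1 was not tested. Among the 6 themselves IL1A and IL1R1 were closest (0.312), followed by IL1B and SAA1 (0.692), and SAA1 and SAA2 stood at 0.800. With 4 libraries such closeness describes these libraries only.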

How the data were processed

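RNA-seq of MDA-MB-231 cells gave 4 libraries, 2 with RB-1 and 2 with DMSO. The authors' deposited table holds raw counts for 20263 human Ensembl gene IDs, not normalised, 1 column per library. Per the labels' protocols, libraries were made with an mRNA kit; the sources used here name no aligner, counter, read length or use of strand. Per the submitters' processing notes the builds are GRCm38 and mm10, which are mouse builds, while all IDs are human. The build used for counting is therefore unsettled, and printed coordinates are those of the reference (GENCODE 29, or RefSeq GRCh38.p14 for promoters). A table of human gene names matched 20148 IDs. The response gene SOD2 was not matched by that table and is not analysed here.

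Genes were kept by filterByExpr (13612). Normalisation used TMM factors (0.868 to 1.10). The two-sided quasi-likelihood F test of edgeR 4.0.16 (R 4.3.3, robust) set RB-1 against DMSO. Calls were made at a Benjamini-Hochberg adjusted p under 0.05. There were 2 residual degrees of freedom per gene and a common biological coefficient of variation of 0.251. SE is the size of the log2 fold change divided by the square root of F. Replicates differed far beyond sampling noise (chi-square per degree of freedom 128 for RB-1 and 257 for DMSO) and were kept apart. CPM per kb used the longest APPRIS principal transcript with a CCDS entry. Likeness used a pseudocount of 0.5 counts and the 13417 genes averaging 10 counts or more. The fit was tested on simulated data without the trend along exon length seen here, which says nothing on calls under that trend. Named genes were the 6 genes, up to 4 called genes with the smallest p in each list (or the 1 with the smallest p where none was called), and IL1RN, IL1R2, SAA4, CASP1 and MYD88. A gene that the rule takes is not reported here. Others are given for their 0 counts, as members of a named sum or after their values were seen. The genes, lists and tests were chosen with earlier results of these data known. Alternatives were DESeq2 1.42.0, RLE factors, upper-quartile factors, scaling by library totals alone, omission of the count filter, each library left out, the replicate number as a block, a length and GC correction by splines and, added after seeing the data, mitochondrial genes left out.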

Additional observations from a re-analysis of the deposited data

How the results depend on the processing

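Over all 12 alternatives the log2 fold changes of IL1A (1.14 to 1.74), IL1B (3.85 to 4.58), IL1R1 (1.14 to 2.15), SAA1 (3.08 to 4.73) and SAA2 (2.40 to 3.01) kept their sign, and IL1RAP (-0.50 to 0.65) did not. With the length and GC correction IL1B (3.85), SAA2 (2.42) and IL1RAP (0.65) moved by more than the spread between replicates. Leaving out 1 library gave 1.14 to 1.74 for IL1A, 4.14 to 4.57 for IL1B, 1.14 to 2.15 for IL1R1, -0.50 to 0.35 for IL1RAP, 3.22 to 4.73 for SAA1 and 2.40 to 3.01 for SAA2. Upper-quartile factors shifted the median of all genes by 0.11 and library totals alone by 0.20. With library totals alone 2059 genes were higher and 1400 lower, against 1737 and 2189. Upper-quartile factors gave 2171 higher and 1830 lower, and the length and GC correction 1349 and 2641. Leaving out 1 library gave 522 to 1955 higher and 1065 to 2443 lower, the smallest numbers without DMSO replicate 2 (higher) and RB-1 replicate 1 (lower). Pathway genes called lower numbered 5 with upper-quartile factors or library totals alone, and 4 to 13 with 1 library left out. Those called higher numbered 16 to 25 in that case, with 16 without RB-1 replicate 1. Of the 25 tested pathway genes named by the rule, 7 lost their call without RB-1 replicate 1, 5 without DMSO replicate 1, 5 without DMSO replicate 2 and 3 with the length and GC correction. Only MYD88, which was not called, turned its direction, to 0.13 without DMSO replicate 2. The correction also lowered CEBPB to 0.74, IL32 to 1.95, PYCARD to 1.63 and the fall of IL6ST to -0.71, all still called. With the replicate number as a block, 1741 genes were higher and 2314 lower and no named gene changed its call. Same-numbered libraries deviated from their group means with a correlation of -0.0959 across genes, and the labels give no shared day or culture, so the numbers were not taken as pairs. Low counts limit the serum amyloid A genes and IL1A in DMSO most.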
